A study of Xenopus laevis with 5 samples.

Results

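The bone morphogenetic protein (BMP) ligands and the chordin system of the frog gastrula were followed here, copy by copy, in whole embryos of *Xenopus laevis*. The set holds every gene model that the deposited annotation names bmp2, bmp4, bmp7.1, bmp7.2, admp, chrd, chrd.1, nog, szl or bambi, once the ending L or S is taken off. These 10 symbols gave 18 gene models of 45099 in all, and each of the 18 passed the filter on low counts. *X. laevis* is allotetraploid, so most genes have a copy on the long (L) and another on the short (S) set of chromosomes, called homeologs. Both groups were injected with 18 ng of a morpholino, an antisense oligonucleotide that binds RNA, and were labelled stage 10.5, the early gastrula. The MOV10 group (2 libraries, numbered replicates 2 and 3) received a translation-blocking morpholino against MOV10, an RNA helicase that works with the RNA-induced silencing complex, and the control group (3 libraries) received a control morpholino. The labels describe the libraries as biological replicates from separate embryos, with eggs from 2 mating pairs. The labels do not tie the embryos to the pairs.

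BMPs are secreted dimers that bind pairs of type I and type II serine/threonine kinase receptors, and these phosphorylate Smad1, Smad5 and Smad9, which act in the nucleus with Smad4. In the frog gastrula BMP signalling is strongest on the ventral side, where it favours epidermis and ventral mesoderm. On the dorsal side, the Spemann organizer secretes chordin and noggin, which bind BMPs and keep them from their receptors. Tolloid proteases cut chordin and free the bound BMP, and sizzled, itself made on the ventral side, inhibits those proteases.

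The library labels and the marker genes did not match in the MOV10 group. The 20 muscle gene models summed here are of genes used in somite muscle. Their summed level in CPM (read counts scaled to the size of the library) was 15059 and 17228 in MOV10 replicates 2 and 3. In control replicates 1, 2 and 3 it was 87.7, 413 and 182 CPM. All 18 of these models that could be tested rose, among them mylpf.S (931-fold), tnnt3.S (225-fold) and tnnc2.S (779-fold), and 2 of the 20 had no read in any control library. The summed level of 18 early gastrula marker models was 771 and 1214 CPM in the MOV10 libraries, against 2406, 1786 and 2251 CPM in the controls. Of those 18, 11 fell and none rose, with gs17.L lower by 11.7-fold, foxi4.2.L by 7.14-fold and foxi4.2.S by 6.52-fold. The other 7, gsc.L and both copies of vegt, gata6 and the endoderm gene sox17a, did not pass. Among all genes tested, 17.7% fell and 24.4% rose. The sums rested largely on few models, named after their values were seen. Of the muscle sum, actc1.S gave 44.2, 274 and 94.4 CPM and actc1.L gave 13.9, 72.0 and 34.1 CPM in the controls. In the MOV10 libraries actc1.S gave 3056 and 3183 CPM and actc1.L gave 3397 and 3625 CPM. In the controls gs17.L stood at 999.5, 799 and 935 CPM, against 87.7 and 68.4 CPM in the MOV10 libraries. In the MOV10 libraries sox17a.L stood at 140 and 376 CPM and sox17a.S at 296 and 591 CPM. Both MOV10 libraries stood apart from the controls in the muscle sum and in the early gastrula sum, so no result could be given without them. The morpholino and a difference in the embryos' real stage cannot be told apart in these libraries, and the part of stage in each result below was not tested. In RNA from whole embryos, fewer cells of a type and less RNA per cell cannot be told apart either.

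Reads assigned to genes numbered 11347400 to 13515787 per library, and 3 counts corresponded to 0.201 to 0.283 CPM. RNA of mov10.L itself stood at 32.8 and 26.0 CPM in the MOV10 libraries, against 7.03, 2.69 and 5.86 CPM in the controls. A block of translation need not lower the RNA, so this level checks neither the labels nor the knockdown. Differences were tested with the quasi-likelihood test of edgeR, adjusted by Benjamini and Hochberg's method over all 20049 genes tested and a threshold of 0.05. A gene is said to have risen or fallen only where it passed that threshold. By this test mov10.L rose 5.63-fold (edgeR adjusted p = 0.00180).

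The antagonists and most of the ligand copies that passed the test were lower in the MOV10 embryos. Of the 18 models, 10 fell, 1 rose and 7 did not pass. Among all genes tested, 17.7% fell and 24.4% rose, 42.1% in either direction. The median log2 fold change was -1.29 over the 18 models and 0.08 over all genes. The excess of rises among all genes depended on the scaling. Scaled by total gene counts instead, 4358 of all genes rose and 4357 fell. In the main test the 8 antagonist copies held 7 of the 10 models of the set that fell. The other 3, and the copy that rose, were among the 10 ligand copies. Both MOV10 libraries lay below all controls for 11 of the 18 models and above all controls for 1, against 30.4% and 35.5% of all genes, 65.9% on either side.

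**Figure D1:**
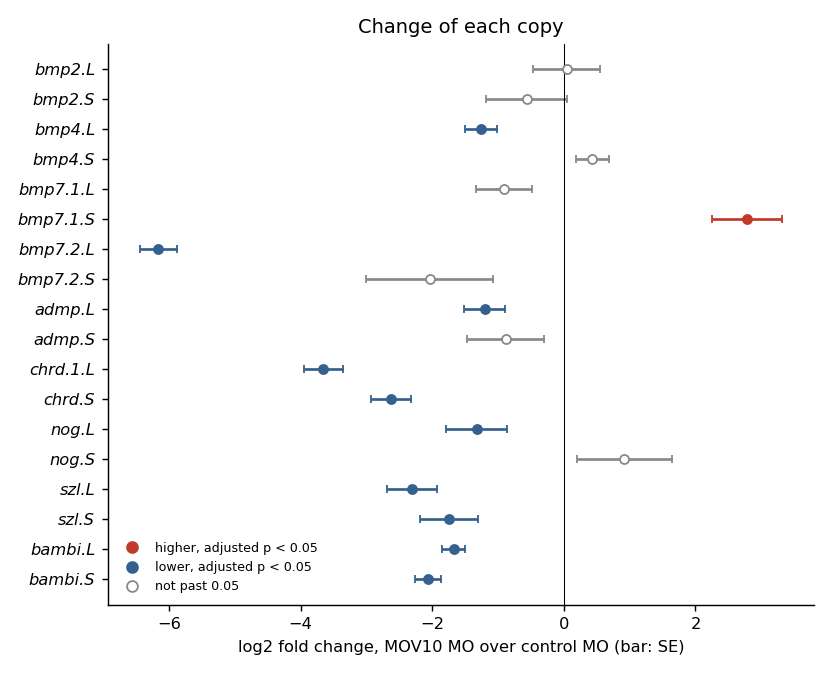
Log2 fold change of each gene model, MOV10 morpholino over control morpholino, with its standard error as a bar and filled points where edgeR's adjusted p passed 0.05. The 10 filled points left of 0 are led by bmp7.2.L at -6.16, and bmp7.1.S at 2.78 is the only filled point to the right.

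Among the ligands, bmp7.2.L differed most. BMP7 acts as a homodimer and as a heterodimer with BMP2 or BMP4, and the files name paralogous loci bmp7.1 and bmp7.2. The bmp7.2.L model (Xelaev18018155m.g, chromosome 3L, 88680820 to 88729441 of the Xenla9.1 build) stood at 3.48 and 2.46 CPM in the MOV10 libraries, against 222, 199.5 and 219 CPM in the controls. The 3 controls lay close together and both MOV10 libraries were far below them. The level fell 71.6-fold, or by -6.16 ± 0.28 (SE) on the log2 scale (edgeR adjusted p = 4.87e-06). Its S copy, bmp7.2.S, had 7 and 1 counts in the MOV10 libraries and 34, 14 and 16 counts in the controls. Both MOV10 libraries were again below all controls, but the difference did not pass the test (log2 fold change -2.04 ± 0.96 (SE), edgeR adjusted p = 0.119).

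Of the bmp7.1 copies, the S copy rose and the L copy did not pass the test. The S copy (Xelaev18046214m.g, 9_10S, 12421244 to 12481555) had 11.2 and 4.91 CPM in the MOV10 libraries, against 0.870, 1.14 and 1.49 CPM in the controls. It is the only model of the set in which both MOV10 libraries were above all controls. It rose 6.89-fold (log2 fold change 2.78 ± 0.54 (SE), edgeR adjusted p = 0.00403), and the rise was 4.18-fold without MOV10 replicate 2 (edgeR adjusted p = 0.0493). The L copy had 14.4 and 5.48 CPM in the MOV10 libraries, against 21.4, 14.3 and 20.4 CPM in the controls. MOV10 replicate 2 was level with control replicate 2, and the difference of -0.91 ± 0.43 (SE) on the log2 scale did not pass (edgeR adjusted p = 0.121). Without MOV10 replicate 2 it was -1.78, past the threshold (edgeR adjusted p = 0.0164).

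The bmp4 gene encodes the main ventral BMP of the gastrula, and its copies differed from each other. The L copy (Xelaev18039648m.g, 8L, 71269729 to 71276125) stood at 57.4 and 72.5 CPM in the MOV10 libraries, against 141, 193 and 132 CPM in the controls. Both MOV10 libraries were below every control, and the level fell 2.39-fold (log2 fold change -1.26 ± 0.25 (SE), edgeR adjusted p = 0.00428). The S copy (Xelaev18041226m.g, 8S, 13731585 to 13737123) stood at 202 and 357 CPM in the MOV10 libraries, against 223, 203 and 196 CPM in the controls. MOV10 replicate 3 was the highest library and MOV10 replicate 2 lay within the controls, and the log2 fold change, 0.43 ± 0.25 (SE), did not pass (edgeR adjusted p = 0.198). That value rested on MOV10 replicate 3, being -0.05 without it and 0.77 without MOV10 replicate 2, where it passed (edgeR adjusted p = 0.0344).

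Admp, the anti-dorsalizing morphogenetic protein, is a BMP-like ligand that is made in the organizer itself. The L copy, admp.L (Xelaev18006392m.g, 1L, 102020928 to 102024918), had 13.1 and 16.2 CPM in the MOV10 libraries, against 45.1, 27.9 and 28.0 CPM in the controls. It fell 2.30-fold (log2 fold change -1.20 ± 0.31 (SE), edgeR adjusted p = 0.0148), but not past the threshold without MOV10 replicate 2 (edgeR adjusted p = 0.0781). Both MOV10 libraries were below all controls, and control replicate 1 stood above the other controls. The S copy had 9.13 and 3.97 CPM in the MOV10 libraries, against 21.3, 6.85 and 8.10 CPM in the controls, and the groups overlapped (log2 fold change -0.89 ± 0.58 (SE), edgeR adjusted p = 0.254). A related gene outside the set, admp2.L, was chosen after its values were seen: it had 5.55 and 9.36 CPM in the MOV10 libraries, against 47.6, 17.7 and 37.8 CPM in the controls, and fell 4.61-fold (edgeR adjusted p = 0.00607).

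For bmp2, a ligand close to BMP4 in sequence that the gastrula also makes on its dorsal side, no difference passed the test. The L copy had 5.74 and 15.7 CPM in the MOV10 libraries, against 12.1, 5.79 and 13.4 CPM in the controls. The S copy had 10.2 and 31.9 CPM in the MOV10 libraries, against 48.5, 12.0 and 33.0 CPM in the controls. In both copies MOV10 replicate 3 was above MOV10 replicate 2, control replicate 2 was the lowest control, and the groups overlapped. The log2 fold change was 0.04 ± 0.51 (SE) for bmp2.L (edgeR adjusted p = 0.959) and -0.57 ± 0.61 (SE) for bmp2.S (edgeR adjusted p = 0.487), with the sign of each changing when single libraries were left out and that of bmp2.L also under scaling by total gene counts.

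**Figure D2:**
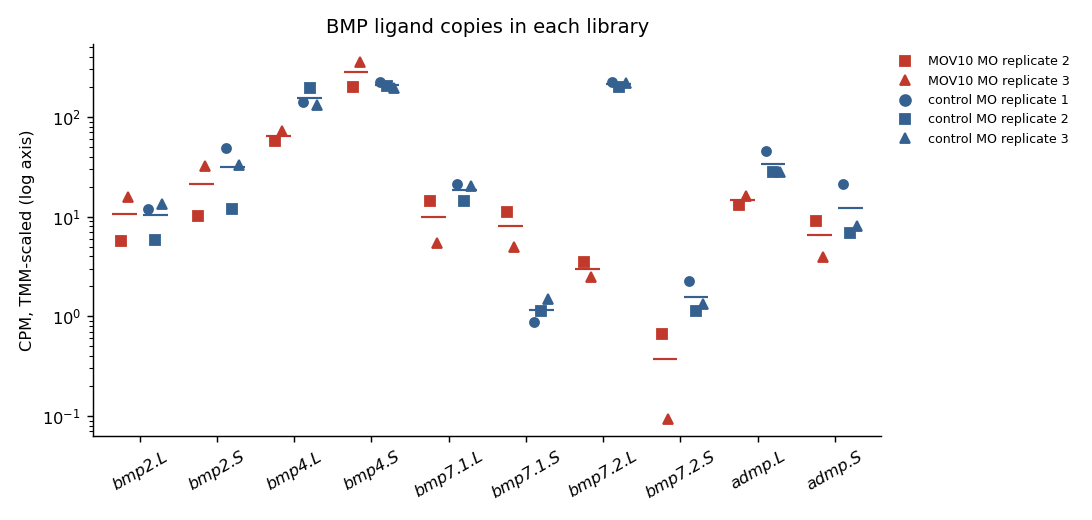
Level of each ligand copy in each library, in CPM on a log axis, with MOV10 libraries left of the controls and the group mean as a line. The MOV10 points of bmp7.2.L (3.48 and 2.46 CPM) lie far below its controls, and those of bmp7.1.S (11.2 and 4.91 CPM) lie above them.

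Among the 8 antagonist copies of the set, the models named chordin had the largest fold falls. Chordin is the BMP-binding protein of the organizer, built with cysteine-rich domains that hold the ligand. The L model, chrd.1.L (Xelaev18027420m.g, 5L, 97315740 to 97328164), had 21.0 and 18.5 CPM in the MOV10 libraries, against 318, 243 and 186 CPM in the controls. The S model, chrd.S (Xelaev18029538m.g, 5S, 81718932 to 81736026), had 52.2 and 43.0 CPM in the MOV10 libraries, against 393, 283 and 205 CPM in the controls. For both models the MOV10 libraries lay close together, well below all controls, and control replicate 1 was the highest library. The level of chrd.1.L fell 12.6-fold (log2 fold change -3.66 ± 0.29 (SE), edgeR adjusted p = 7.86e-05) and that of chrd.S fell 6.18-fold (-2.63 ± 0.31 (SE), edgeR adjusted p = 4.22e-04). Both passed the threshold under each alternative setting and with each library left out.

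A further model named chordin lies on the same chromosome but outside the set. It is chrd.2.L (5L, 97369386 to 97386987), 41221 bases beyond chrd.1.L with no gene model between them. It was looked at after its values were seen, at 10.5 and 10.6 CPM in the MOV10 libraries, against 107, 129.8 and 85.0 CPM in the controls, a 10.1-fold fall (edgeR adjusted p = 8.76e-05). The files do not say whether chrd.1.L and chrd.2.L are parts of a single gene. Reads from stretches that they share would have mapped to several places and would not have been counted.

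Noggin, a BMP-binding protein of the organizer that is unrelated to chordin in sequence, gave a weaker result. The L copy (Xelaev18043801m.g, 9_10L, 27214267 to 27216108) had 4.80 and 5.39 CPM in the MOV10 libraries, against 7.43, 19.6 and 11.3 CPM in the controls. Both MOV10 libraries were below all controls, and the 2.51-fold fall passed narrowly (log2 fold change -1.33 ± 0.46 (SE), edgeR adjusted p = 0.0468). It no longer passed without MOV10 replicate 2 (0.143), MOV10 replicate 3 (0.102), control replicate 2 (0.154) or control replicate 3 (0.0802), all edgeR adjusted p-values, nor under 4 other settings (0.0501 to 0.103). The S copy had 2.92 and 7.09 CPM in the MOV10 libraries, against 0.737, 2.85 and 4.38 CPM in the controls. Here the groups overlapped (log2 fold change 0.92 ± 0.73 (SE), edgeR adjusted p = 0.339).

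Sizzled, a secreted Frizzled-related protein and itself a target of BMP signalling, fell in both copies. The L copy (Xelaev18017689m.g, 3L, 62893358 to 62895707) had 55.1 and 40.6 CPM in the MOV10 libraries, against 156, 358 and 197 CPM in the controls, and fell 4.95-fold (log2 fold change -2.31 ± 0.38 (SE), edgeR adjusted p = 0.00188). The S copy (Xelaev18021029m.g, 3S, 75704380 to 75707073) had 8.66 and 4.72 CPM in the MOV10 libraries, against 21.6, 31.8 and 14.1 CPM in the controls, and fell 3.36-fold (-1.75 ± 0.44 (SE), edgeR adjusted p = 0.0127). In both copies the MOV10 libraries were below every control, with control replicate 2 the highest. The fall of szl.S did not pass without MOV10 replicate 3 (log2 fold change -1.39, edgeR adjusted p = 0.0634).

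Bambi, a membrane protein that resembles a type I receptor but lacks the kinase domain, had little spread within groups. The L copy (Xelaev18030743m.g, 6L, 20844683 to 20851715) had 161 and 154 CPM in the MOV10 libraries, against 490.3, 505 and 514 CPM in the controls. The S copy (Xelaev18032884m.g, 6S, 17317749 to 17325375) had 87.3 and 86.5 CPM in the MOV10 libraries, against 323, 362 and 407 CPM in the controls. Neither copy overlapped between the groups. The level of bambi.L averaged 158 ± 4.91 CPM in the MOV10 libraries (SD, n = 2) and 503 ± 12.1 CPM in the controls (SD, n = 3), a 3.19-fold fall (edgeR adjusted p = 2.50e-04). The level of bambi.S fell 4.19-fold (edgeR adjusted p = 1.76e-04), and the log2 fold changes were -1.67 ± 0.17 (SE) for L and -2.07 ± 0.20 (SE) for S.

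**Figure D3:**
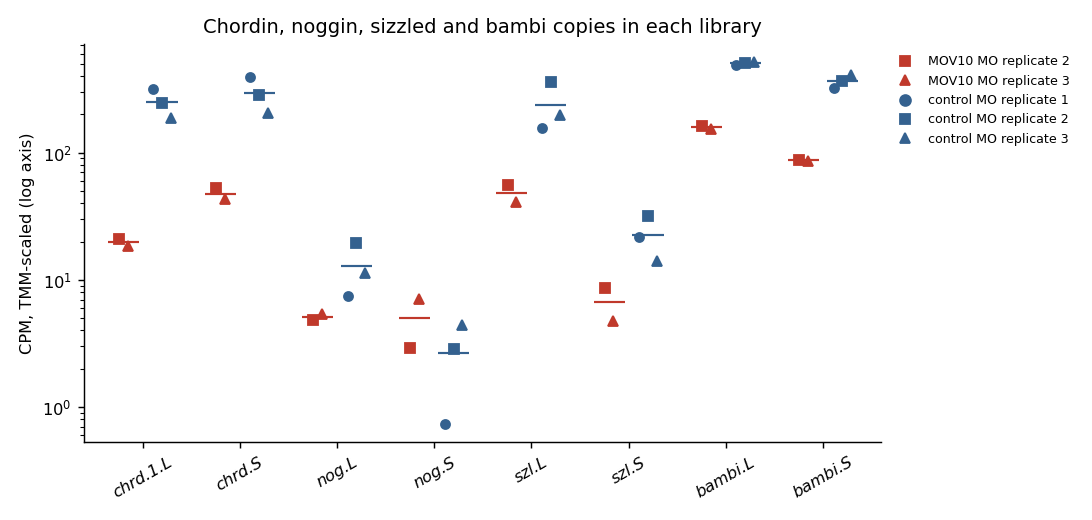
Level of each chordin, noggin, sizzled and bambi copy in each library, in CPM on a log axis, with MOV10 libraries left of the controls and the group mean as a line. The groups are apart for every copy but nog.S, where the MOV10 values of 2.92 and 7.09 CPM overlap the controls.

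The organizer makes chordin, noggin and admp, so its transcription factors were read beside them. Over 14 models of 8 organizer transcription factors the summed level was 113 and 129 CPM in the MOV10 libraries, against 457, 269 and 322 CPM in the controls. Both copies of foxa4, looked at after their values were seen, made up much of the control sums. In control replicates 1, 2 and 3, foxa4.L had 162, 81.1 and 134 CPM and foxa4.S had 141, 82.2 and 97.4 CPM. Of the 10 models tested, 4 fell and none rose, with 17.7% of all genes falling and 24.4% rising. The other 6, lhx1.L, gsc.L and both copies of hhex and otx2, did not pass. The log2 fold change was -0.69 for gsc.L, 0.24 for otx2.L and -0.11 for otx2.S. The LIM homeobox gene lhx1.S fell 9.94-fold, goosecoid (gsc.S) 5.61-fold and the forkhead gene foxa4.L 4.35-fold (edgeR adjusted p = 3.73e-04, 0.00435 and 0.00580). The fold of gsc.S was 12.7 without MOV10 replicate 2 and 3.64 without MOV10 replicate 3, and that of foxa4.L was 7.77 without MOV10 replicate 3. Control replicate 1 was the highest control for all 10 of these models, for 9 of the 18 models of the set and for 35.2% of all genes. Within the set it was the highest control for each chordin and admp copy and the lowest for both noggin copies. The part that the amount of organizer RNA played in the chordin values was not tested.

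The homeologs of a gene did not always move together. For the 8 genes with an L and an S copy, the share of reads from the L copy was compared between groups, and the difference between the changes of the copies was tested in edgeR over all 5137 L and S pairs. The copies differed in 3 of the 8 genes, against 19.5% of all pairs. The L share of the MOV10 libraries was clear of all controls in 6 of the 8, against 54.2% of the pairs with reads in every library. Per gene, an exact permutation test of 2 against 3 libraries cannot go below p = 0.1, so it could not pass the threshold. STAR counts only reads that map to a single place, so reads from stretches identical in L and S are missing from both copies.

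For bmp4 the L copy gave 22.2% and 16.9% of the reads in the MOV10 libraries, against 38.8%, 48.8% and 40.2% in the controls. The change of the L copy minus that of the S copy was -1.69 on the log2 scale (edgeR adjusted p = 0.00675), a difference that did not pass without MOV10 replicate 3 (-1.40, edgeR adjusted p = 0.0584). For bmp7.1 the L share was 56.3% and 52.7% in the MOV10 libraries, against 96.1%, 92.6% and 93.2% in the controls (L minus S -3.70, edgeR adjusted p = 0.00336). For bmp7.2 it was 84.1% and 96.3% in the MOV10 libraries, against 99.0%, 99.4% and 99.4% in the controls (L minus S -4.12, edgeR adjusted p = 0.00554). That last value rests on the 8 S reads of the MOV10 libraries, and without MOV10 replicate 2 it did not pass (-2.50, edgeR adjusted p = 0.349). In these 3 genes the L share of both MOV10 libraries was below that of every control.

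The other 5 pairs did not pass. For nog the L share was 62.2% and 43.2% in the MOV10 libraries, against 91.0%, 87.3% and 72.1% in the controls (L minus S -2.25, edgeR adjusted p = 0.0895). For bambi it was 64.9% and 64.1% in the MOV10 libraries, against 60.3%, 58.2% and 55.8% in the controls, the L share being slightly higher in both MOV10 libraries (edgeR adjusted p = 0.317). For szl it was 86.4% and 89.6% in the MOV10 libraries, against 87.9%, 91.8% and 93.3% in the controls (edgeR adjusted p = 0.510). For bmp2 and admp the adjusted p-values were 0.671 and 0.776 in the same edgeR model. Chordin has no pair of this kind, since its models are named chrd.1.L and chrd.S.

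**Figure D4:**
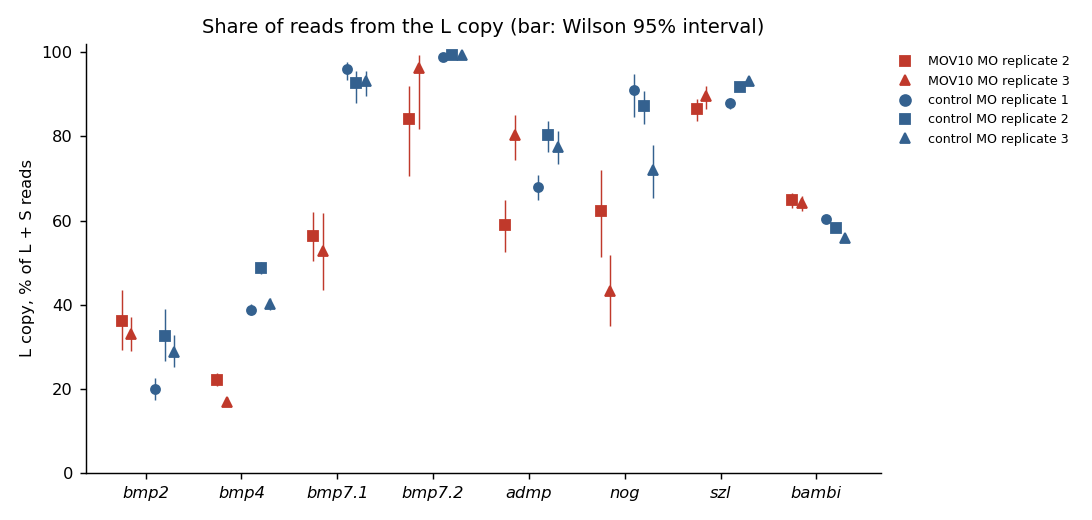
Percentage of a gene's L and S reads that came from the L copy, per library, with Wilson 95% intervals that cover counting error only. The MOV10 libraries, left of the controls, lie lower for bmp4 (22.2% and 16.9%) and bmp7.1 (56.3% and 52.7%) and close to the controls for bambi and szl.

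Taking the copies of a gene as a sum changed the picture for bmp4, bmp7.1 and nog, where a single copy passed and the total did not. The L and S total of bmp4 was 253 and 419.9 CPM in the MOV10 libraries, against 372, 401 and 331 CPM in the controls. The groups overlapped, with a log2 fold change of -0.13 ± 0.24 (SE) that did not pass (edgeR adjusted p = 0.690). The total of bmp7.1 was 25.0 and 10.2 CPM in the MOV10 libraries, against 22.7, 15.6 and 22.1 CPM in the controls (-0.20 ± 0.40 (SE), edgeR adjusted p = 0.719). The only copy of the set that rose, bmp7.1.S, thus belonged to a gene whose sum did not pass the test.

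The totals of 4 of the 8 genes fell, against 18.8% of the 15148 units tested, with 44.1% changed in either direction. Those units were L plus S sums and also single models without such a pair, so the shares are not of pairs alone. The total of bmp7.2 was 4.05 and 2.49 CPM in the MOV10 libraries, against 229, 203 and 223 CPM in the controls, a 66.5-fold fall (edgeR adjusted p = 1.35e-05). The total of bambi was 243 and 235 CPM in the MOV10 libraries, against 829.5, 877 and 931 CPM in the controls, a 3.68-fold fall (edgeR adjusted p = 1.69e-04). The total of szl fell 4.92-fold (edgeR adjusted p = 0.00205). The total of admp fell 2.25-fold (edgeR adjusted p = 0.0248), but not past the threshold without MOV10 replicate 2 (0.0668) or MOV10 replicate 3 (0.0875), nor with glmTreat (0.0719). The totals of nog (log2 fold change -0.66 ± 0.46 (SE), edgeR adjusted p = 0.272) and bmp2 (-0.44 ± 0.57 (SE), edgeR adjusted p = 0.564) did not pass.

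The rest of the pathway was read from 6 lists of 78 further symbols, which gave 123 gene models. Of these, 76 passed the filter, 28 fell, 11 rose and 37 did not pass, with a median log2 fold change of -0.64, where 17.7% of all genes fell and 24.4% rose. Among 34 L and S pairs on these lists the copies differed in 5, those of bmp1, evx1, fstl1, smad4.1 and smad9, against 19.5% of all pairs.

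Few other ligands had enough reads, 4 of 19 models. The TGF-beta family ligand gene gdf3.S had 4.89 and 11.1 CPM in the MOV10 libraries, against 89.1, 168 and 163 CPM in the controls, and fell 17.6-fold (edgeR adjusted p = 3.25e-04), or 28.8-fold without MOV10 replicate 3. The BMP gene bmp5.L had 52 and 19 counts in the MOV10 libraries, against 0, 2 and 1 counts in the controls, a ratio of 43.9 (exact 95% counting interval 14.4 to 218). It rose (edgeR adjusted p = 0.00441), but not past the threshold without MOV10 replicate 2, where the ratio was 23.5 (edgeR adjusted p = 0.0937). The ratio was 27.2 without control replicate 1 and 90.5 without control replicate 2.

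Of 15 receptor and co-receptor models tested, 5 fell and 4 rose, with 17.7% of all genes falling and 24.4% rising. The co-receptor gene rgma.L fell 3.90-fold (edgeR adjusted p = 0.00118) and the type II receptor gene acvr2a.L fell 5.85-fold (edgeR adjusted p = 0.00173). The type II receptor gene acvr2b.L had 6.77 and 13.5 CPM in the MOV10 libraries, against 1.61, 1.22 and 1.98 CPM in the controls, and rose 6.29-fold (edgeR adjusted p = 0.00289), or 4.17-fold without MOV10 replicate 3. The S copies of these 3 genes passed in the same direction as their L copies. They are named here after their values were seen, as are bmpr2.L and bmpr2.S, a type II receptor, which also rose, and the type I receptor gene bmpr1a.S, which fell. The call of acvr2a.S did not hold without MOV10 replicate 2 (edgeR adjusted p = 0.0563), nor that of bmpr2.L without MOV10 replicate 2 (0.0860) or replicate 3 (0.107). The bmpr2.S model had 90 and 60 counts in the MOV10 libraries, against 7, 0 and 13 counts in the controls. Its fold was 13.6, and 27.3 without control replicate 3. The fall of bmpr1a.S was 2.33-fold, and with 1 library left out it passed only without MOV10 replicate 3 (4.01-fold). It did not pass at a minimum count of 50 (edgeR adjusted p = 0.0503) or with glmTreat (0.103).

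Of 13 other secreted BMP-binding models tested, 6 fell and 2 rose, with 17.7% of all genes falling and 24.4% rising. Cerberus, which binds BMP, Nodal and Wnt ligands, fell in both copies. The S copy, cer1.S, stood at 7.15 and 9.26 CPM in the MOV10 libraries, against 417, 195 and 230.1 CPM in the controls (34.2-fold, edgeR adjusted p = 8.44e-05). The L copy, cer1.L, was named after its values were seen. It had 6 and 3 counts in the MOV10 libraries, against 79, 40 and 42 counts in the controls (9.26-fold, edgeR adjusted p = 0.00575). Tsukushi, a small leucine-rich proteoglycan that binds BMP and chordin, fell in both copies. The fall was 11.0-fold for tsku.S (edgeR adjusted p = 4.57e-04), or 18.4-fold without MOV10 replicate 3, and 6.79-fold for tsku.L (edgeR adjusted p = 6.92e-04). The 2 that rose, fstl1.L and fstl1.S, are copies of a follistatin-like gene and were named after their values were seen. The fstl1.L model had 204 and 129 counts in the MOV10 libraries, against 4, 9 and 0 counts in the controls. Its rise was 45.9-fold, or 101-fold without control replicate 2, and the fold rests on few control reads.

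The tolloid family gene bmp1, which despite its name encodes a metalloprotease of the kind that cuts chordin, had copies that moved in opposite directions. No model named tll1 or tll2 was found, so only bmp1 stood for this family. The S copy had 28.4 and 35.8 CPM in the MOV10 libraries, against 3.88, 4.56 and 4.46 CPM in the controls, and rose 7.46-fold (edgeR adjusted p = 1.83e-04). The L copy had 11.6 and 8.32 CPM in the MOV10 libraries, against 21.9, 17.4 and 22.2 CPM in the controls, and fell 2.06-fold (edgeR adjusted p = 0.0224). Neither copy overlapped between groups, and the changes of the copies differed (L minus S -3.94, edgeR adjusted p = 1.29e-04). The fall of bmp1.L did not pass without MOV10 replicate 3 (0.122), control replicate 1 (0.0591) or control replicate 3 (0.0635), all edgeR adjusted p-values, nor against a 1.5-fold change with glmTreat (0.0801).

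Most of the Smad and Smurf models, of transducers and inhibitors alike, did not pass the test. Of 15 Smad and Smurf models tested, 1 fell, 1 rose and 13 did not pass, with 42.1% of all genes called in either direction. The median log2 fold change of the 15 was 0.14. Not passing does not show an unchanged level, since some errors were wide, as for smad7.S (0.14 ± 0.93 (SE)) and smad9.S (1.02 ± 1.02 (SE)). The copies smad4.1.L (1.15, edgeR adjusted p = 0.0537) and smad4.1.S (-0.86, edgeR adjusted p = 0.0776) had opposite signs. No model named smad5 was found. The smurf2.S copy, from a gene for a ubiquitin ligase that targets Smads and their receptors, rose 2.02-fold (edgeR adjusted p = 0.00524). The fall was in smad9.L, with 1 and 1 counts in the MOV10 libraries and 29, 19 and 8 counts in the controls, a control to MOV10 ratio of 15.1 (exact 95% counting interval 3.99 to 128, edgeR adjusted p = 0.0222). It did not pass without MOV10 replicate 2 (edgeR adjusted p = 0.111) or MOV10 replicate 3 (edgeR adjusted p = 0.114), with limma-voom (adjusted p = 0.0675) or with counts of both strands (edgeR adjusted p = 0.0520).

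Transcription factors that respond to BMP in the gastrula gave 14 falls and 2 rises among 27 models tested, with a median log2 fold change of -1.60. No model named id1, ventx2.1 or ventx2.2 was found. Among all genes tested, 17.7% fell and 24.4% rose. The ventral homeobox gene ventx1.1.S had 27.4 and 27.3 CPM in the MOV10 libraries, against 234, 285 and 306 CPM in the controls, and fell 10.1-fold (edgeR adjusted p = 3.73e-05). The epidermal regulator tfap2a.L fell 6.02-fold (edgeR adjusted p = 1.60e-04) and the homeobox gene msx1.S fell 5.37-fold (edgeR adjusted p = 3.76e-04). The 2 that rose were gata3.L and gata3.S, named after their values were seen. Neither gata3 rise passed without MOV10 replicate 3 (edgeR adjusted p = 0.194 for L and 0.438 for S). Leaving out control replicate 1 or control replicate 2 also ended both calls (edgeR adjusted p of 0.0649 to 0.0892), and leaving out control replicate 3 ended that of gata3.S (0.0569). Neither rise passed with scaling by total gene counts (edgeR adjusted p = 0.0516 for L and 0.0599 for S) or with glmTreat (0.0731 and 0.0757). The other 11 models, id3.S, msx2.L, dlx3.L and both copies of id2, id4, evx1 and ventx3.2, did not pass. Their log2 fold changes were 0.27 for id2.L, 0.73 for id2.S, 1.49 for id4.L, 0.58 for id4.S, 1.71 for evx1.S and 0.30 for ventx3.2.L. They were -0.12 for id3.S, -0.35 for msx2.L, -1.66 for dlx3.L, -1.65 for evx1.L and -0.64 for ventx3.2.S. Both MOV10 libraries were above all controls for 7 of the 27 and below them for 15 (35.5% and 30.4% of all genes).

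**Figure D5:**
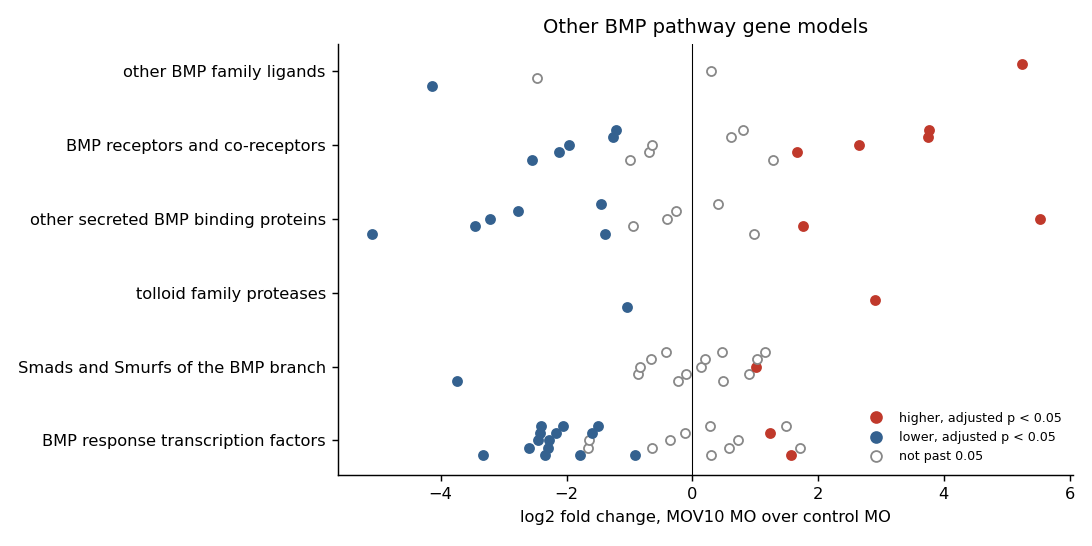
Log2 fold change, MOV10 morpholino over control morpholino, of the 76 tested gene models on the 6 lists of other BMP pathway genes, with filled points where edgeR's adjusted p passed 0.05. The response transcription factors hold 14 of the 28 filled points left of 0, and 13 of the 15 Smad and Smurf models are open.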

How the data were processed

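Per the labels' protocols, total RNA from whole embryos was extracted with TRIZOL and sequenced from stranded TruSeq mRNA libraries. The submitters' processing notes name STAR 2.5.2a, edgeR 3.15.2, bcl2fastq 2.17.1.14 and FastQC 0.11.4. The deposited files hold whole-number read counts per gene. The reverse-strand column, the sense strand for this kit, was used. It held 88.3% and 89.3% of the stranded gene reads in MOV10 replicates 2 and 3, against 93.9%, 93.1% and 92.1% in the controls. The 4 summary lines, which name no gene, were left out. Of all reads, 29.8 to 40.4% were unmapped and 2.02 to 5.53% mapped to several places, most in MOV10 replicate 2. A further 48.6 to 57.1% met no annotated feature on the counted strand. Reads assigned to genes made up 7.51% and 8.83% in MOV10 replicates 2 and 3, against 10.4%, 10.1% and 9.01% in the controls. Gene names and Xenla9.1 coordinates come from the deposited annotation table. The authors' deposited table of log2 fold changes, p-values and false discovery rates, with a signed fold change treated as a score, was used only for a comparison given in the closing section. A MOV10 library numbered 1 was not analysed here.

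Counts were tested in R 4.3.3 with edgeR 4.0.16 (filterByExpr with a minimum count of 10, TMM scaling, quasi-likelihood test, two-sided, Benjamini-Hochberg over 20049 genes). CPM values are TMM-scaled. The SE of a log2 fold change is its size over the square root of F. L and S pairs were tested with diffSpliceDGE and L plus S totals over 15148 units, both added after the data were seen. These units include single models without a pair. The scripts were tested on simulated data. The members and the gene lists were chosen with earlier results of these data known. In each list up to 3 called gene models with the lowest adjusted p were named. Apart from mov10.L and the set, any other gene was named after its values were seen. Since reads are not independent molecules, intervals and the floor of 3 counts cover counting error only. Alternatives were DESeq2 size factors, total gene counts, no filter, a minimum count of 50, the DESeq2 1.42.0 Wald test, limma-voom (limma 3.58.1), glmTreat at 1.5-fold, counts without strand, a replicate block and leaving out each library. No reference sequence was used here.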

Additional observations from a re-analysis of the deposited data

How the results depend on the processing

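The number of models of the set that fell stayed between 8 and 10 and the number that rose was 1, except that bmp4.S joined bmp7.1.S without MOV10 replicate 2, where 2 rose. Leaving out libraries 1 at a time thus gave 1 to 2 rises. For the other BMP pathway genes the counts ranged from 8 to 12 rises and from 22 to 30 falls. Besides the effects given with each gene above, the call of nog.L ended with DESeq2 size factors (adjusted p = 0.0501), a minimum count of 50 (0.0513), limma-voom (0.0793) and glmTreat (0.103). Under glmTreat the falls of twsg1.L (0.0771), twsg1.S (0.0510), id3.L (0.117) and dlx3.S (0.0590) ended as well. Leaving out single control libraries also ended these calls (edgeR adjusted p). Without control replicate 1 those of twsg1.L (0.107), id3.L (0.0649) and dlx3.S (0.0516) ended. Without control replicate 3 those of twsg1.L (0.0708), twsg1.S (0.0542), id3.L (0.0612) and dlx3.S (0.0729) ended. These calls depended on the MOV10 libraries too. Without MOV10 replicate 2 the log2 fold change was -1.03 for twsg1.L, -1.20 for twsg1.S and -0.82 for id3.L. Without MOV10 replicate 3 it was -1.03 for id3.L and -1.18 for dlx3.S. Over all alternatives the adjusted p ranged from 0.0168 to 0.154 for nog.L, from 0.00241 to 0.0781 for admp.L, from 0.00106 to 0.0634 for szl.S and from 5.27e-05 to 0.0493 for bmp7.1.S. Among the results recomputed, signs turned only for values that did not pass. The log2 fold change of bmp2.L was -0.16 with total gene counts, -0.052 with limma-voom, -0.0014 without a filter and -0.0021 with counts of both strands. Leaving out libraries gave bmp2.L from -0.87 to 0.58, bmp2.S from -1.63 to 0.024 and bmp4.S from -0.052 to 0.77. The totals ranged from -1.45 to 0.13 for bmp2, from -0.55 to 0.19 for bmp4 and from -0.99 to 0.30 for bmp7.1. For admp the log2 ratio of L to S differed by -1.11 to 0.39 and the modelled change of L minus S by -0.96 to 0.55. Scaling by total gene counts moved the median log2 fold change of all genes to -0.12, against 0.08. In the authors' deposited table, 9 of the 18 models were lower and 1 higher at a false discovery rate under 0.05, and nog.L stood at 0.0892.

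Replicate numbers 2 and 3 occur in both groups. With the replicate number as a block, 10 models of the set fell and 1 rose, and 4118 genes rose and 3098 fell in all. Control replicate 1 has no MOV10 library of its number, so under the block it adds nothing to the comparison. Deviations from the group means correlated across genes at 0.0981 for number 2 and 0.0145 for number 3. The deviations of the 2 MOV10 libraries mirror each other, so these values cannot settle whether the numbers are pairs. The main test had the group as its only term. The calls of bmp1.L, smad9.L, bmpr1a.S, bmpr2.L and twsg1.L ended under the block. The bmp7.2.S copy had only 8 reads in the MOV10 group and 64 in the controls, which limits the precision of its values.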

Other observations

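The copies of bmp2 and those of the endoderm gene sox17a, picked after their values were seen, had some order of libraries in common. The level of sox17a.L was 140 and 376 CPM in MOV10 replicates 2 and 3, against 307, 146 and 251 CPM in control replicates 1, 2 and 3. The level of sox17a.S was 296 and 591 CPM in the MOV10 libraries, against 418, 175 and 358 CPM in the controls. As for bmp2.L and bmp2.S, MOV10 replicate 3 was above MOV10 replicate 2, and control replicate 2 was the lowest control. The same held for foxa4.L, gata3.L and tsku.L, so it was not particular to bmp2 and sox17a. The share of all genes with this order was not counted. The full order of the libraries differed between the bmp2 and sox17a models, and no test was made.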
